A study of Mus musculus with 4 samples.

Results

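Integrins and laminins were examined as a family of cell adhesion genes in livers of mice on the CDE diet, which lacks choline and contains ethionine and injures the liver. Members were the genes whose symbol is an integrin alpha or beta subunit (Itga or Itgb followed by a number or by one of the letters d, e, l, m, v or x) or a laminin alpha, beta or gamma chain (Lama, Lamb or Lamc followed by a number). The rule found 35 of the 13903 genes in the table: 24 integrin subunits, of which 16 were alpha and 8 beta, and 11 laminin chains. Itgad was not listed in the table.

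Bulk mRNA of whole liver was measured in OGT-floxed mice of C57BL/6J background, and the CDE diet was given to every group, controls included. The label OGT-KO stands for AAV8-TBG-CRE, a viral vector in which the hepatocyte promoter TBG drives Cre recombinase against the gene of O-GlcNAc transferase (OGT), and the label control for AAV8-TBG-eGFP, which carries a fluorescent protein in place of Cre, so that cells other than hepatocytes keep the gene in both groups. Tissue came from mice without recovery or with a 7-day recovery period. There was 1 library for each of the 4 conditions, made from the RNA of 3 mice pooled in equal parts, so that no value has a replicate error, and no test of the conditions was made.

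Laminins are trimers of an alpha, a beta and a gamma chain that polymerize into the sheet on which a basement membrane is built. Integrins are receptors made of an alpha and a beta subunit that attach cells to laminin, collagen, fibronectin or other cells and that signal through adaptor proteins inside the cell. The normal liver sinusoid lacks a continuous basement membrane, whereas bile ducts and vessels have one, and laminin is known to accumulate around ductules and activated stellate cells during liver injury.

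Promoter sequences of Lama5, Itgax and Lama2 are shown because these members had the largest label differences, averaged over the 2 times, among those with an entry in the promoter table. They are the 250 bases before the RefSeq transcription start on GRCm38.p6, and capitals mark the letters searched in either orientation. The Lama5 window is on the minus strand at chr2:180225860-180226109, that of Itgax on the plus strand at chr7:128129300-128129549 and that of Lama2 on the minus strand at chr10:27616943-27617192.
Lama5: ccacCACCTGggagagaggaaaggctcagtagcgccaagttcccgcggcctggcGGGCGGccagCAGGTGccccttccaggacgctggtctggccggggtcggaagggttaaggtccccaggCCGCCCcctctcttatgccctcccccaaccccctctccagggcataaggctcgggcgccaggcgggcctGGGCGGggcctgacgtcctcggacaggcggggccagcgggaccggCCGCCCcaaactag
Itgax: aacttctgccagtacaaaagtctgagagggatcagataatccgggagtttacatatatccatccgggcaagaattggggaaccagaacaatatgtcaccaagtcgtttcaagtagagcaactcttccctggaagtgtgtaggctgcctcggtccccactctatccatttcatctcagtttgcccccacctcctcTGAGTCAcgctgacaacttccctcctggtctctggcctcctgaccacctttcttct
Lama2: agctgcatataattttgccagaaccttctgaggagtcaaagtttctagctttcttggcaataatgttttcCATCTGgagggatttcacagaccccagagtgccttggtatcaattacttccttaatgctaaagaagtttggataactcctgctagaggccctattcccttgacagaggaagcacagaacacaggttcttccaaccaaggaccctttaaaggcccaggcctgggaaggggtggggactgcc
Short words were searched on both strands, namely the AP-1 word TGAGTCA (its reverse complement included), the TEAD word GGAATG, the E-box words CAGATG and also CAGGTG, the TATA box word TATAAA, and the SP1 word GGGCGG. None of the words searched overlaps another in these 3 windows. The Itgax window held the AP-1 word at -56 from the start, and it was the only 1 of 25 promoters of 22 members with that word, against 4.46% of the 32851 promoters in the table. E-box words were in 13 of the 25 member promoters (52%) and in 29.2% of all promoters. The SP1 word was in 9 (36%) against 32.7%, the TEAD word in 3 (12%) against 12.6%, and TATAAA in 0 against 12.4%. A match is a description of these letters and not evidence of binding.

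The gene targeted in these mice was checked first. Ogt RNA was 64.7 CPM (each library adds up to 1e+06) in the no-recovery library labelled control and 55.3 CPM in that labelled OGT-KO, and 55.7 and 77.7 CPM after 7 days. At 7 days the direction therefore went against the label at the deposited scaling, by 0.47 on the log2(CPM + 1) scale, and it turned to -0.20 with median-ratio scaling, which sets the middle ratio of each library to a common reference equal. Gene-level values do not show which exons the reads came from. The libraries held 19972699 to 22866431 reads on listed genes, and 3 reads, taken as the floor, were worth 0.131 to 0.150 CPM. Hepatocyte markers were abundant in every library, with a summed level of 55880 to 94611 CPM over the 10 listed.

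Integrin and laminin RNA was higher under the label OGT-KO than under the label control at both times. A gene was called at a 2-fold difference of log2(CPM + 1), on which low genes appear to change less than they do in CPM, among the 12989 genes whose mean reached 1 CPM. All 35 members passed that limit, but 7 of them had less than 1 CPM in both control libraries and passed through the libraries in which they were high. With no recovery 31 of 35 members were called higher, against 33.5% of all genes compared, and 0 were called lower, against 4.60%. After 7 days 33 were called higher, against 32.7%, and 1 lower, against 3.50%. The same 31 members were called higher at both times, against 28.0% of all genes. The median difference of the members was 1.93 with no recovery and 2.41 after 7 days, where the medians of all genes compared were 0.64 and 0.61.

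**Figure D1:**
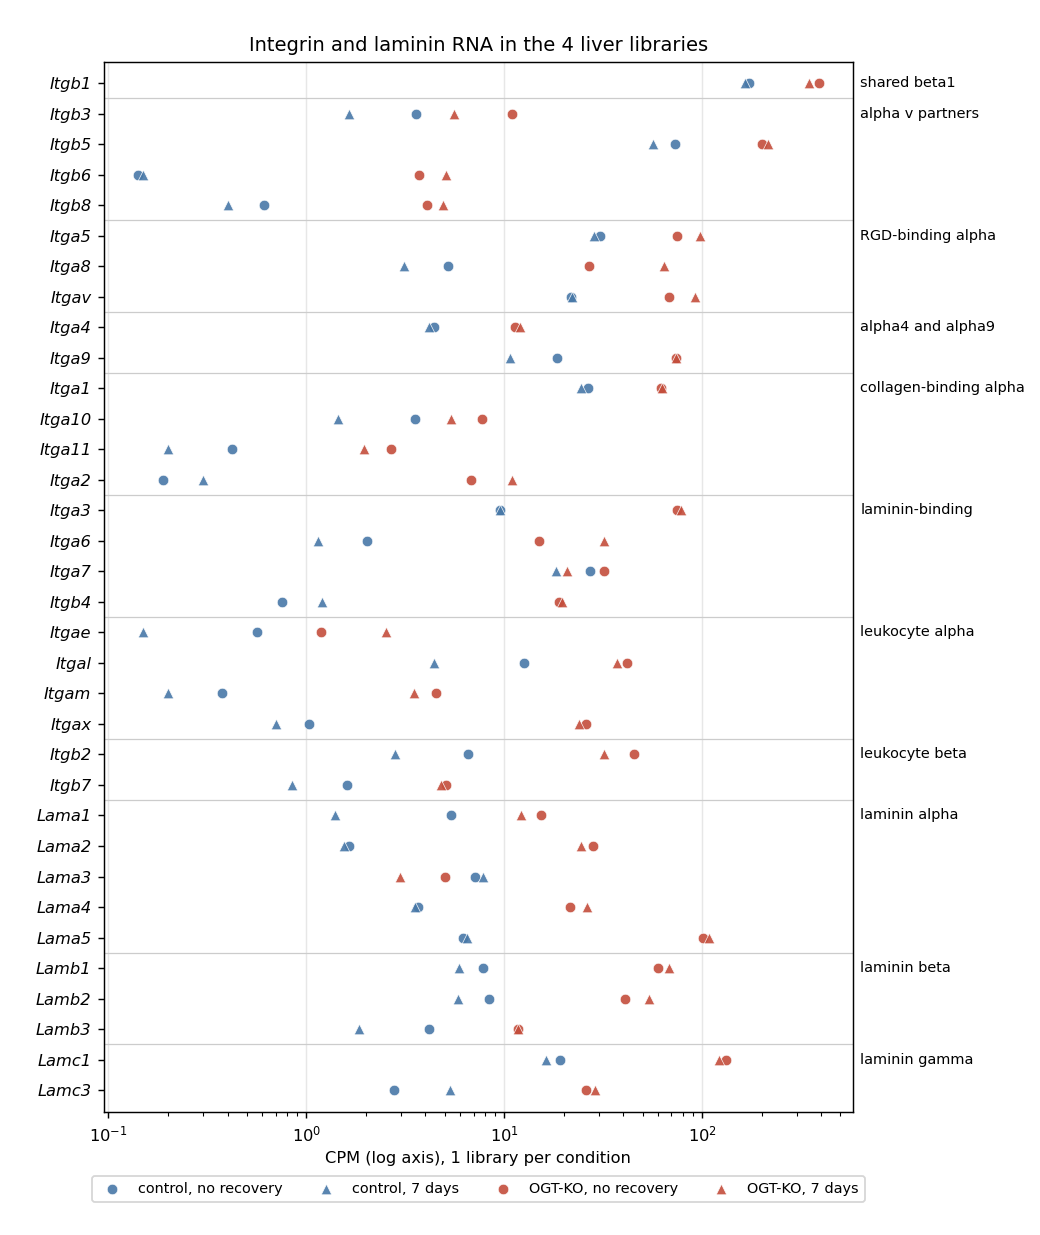
Level of 34 members in CPM (log axis) in the 4 liver libraries, 1 point per library, grouped by role. Circles are no recovery and triangles 7 days, and the libraries labelled OGT-KO (red) lie above those labelled control (blue) for all members shown other than Itga7, whose values interleave, and Lama3, whose order is opposite.

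In CPM, both libraries labelled OGT-KO exceeded both labelled control for 33 members, where 73.7% of all genes did so, and by at least 2-fold for 31 members, where 29.2% did. At a 4-fold limit 16 members were called higher with no recovery (10.4% of all genes) and 22 after 7 days (13.0%). The middle gene was itself higher under the label OGT-KO, and the counts moved with the scaling. With median-ratio scaling, under which the median of all genes was -0.03 and -0.04, 19 of the 34 members that then passed the limit were called higher with no recovery (17.3% of all genes), and the same 19 were called at both times (15.5%). Of the members called at the deposited scaling, Itga1, Itga4, Itga10, Itgb1 and Itgb3 were then past 2-fold at neither time.

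The laminin family had the larger ratios. With no recovery laminin RNA summed to 67.1 CPM in the library labelled control and 465 CPM in that labelled OGT-KO, a ratio of 6.93, and to 56.8 and 489 CPM after 7 days, a ratio of 8.61. Integrin RNA summed to 422 and 1206 CPM with no recovery, a ratio of 2.86, and to 357 and 1251 CPM after 7 days, a ratio of 3.50. The median difference was 2.73 and 2.83 for the 11 laminin chains and 1.63 and 1.97 for the 24 integrin subunits. In whole liver, more cells of a type and more RNA per cell cannot be told apart.

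Values below are given for the libraries labelled control and OGT-KO with no recovery, then control and OGT-KO after 7 days. Of the 5 laminin alpha chains, 4 were called higher at both times (28.0% of all genes). Lama5, the long alpha chain of mature epithelial and vascular basement membranes, had 6.16, 101, 6.46 and 108 CPM. Its ratio between the labels was 16.4 with no recovery (95% exact interval 13.8 to 19.7, which like the other intervals covers counting error only) and 16.8 after 7 days (14.1 to 20.2). Lama5 was thus at nearly the same level within each label, and the groups were far apart. Lama2, the chain of muscle and nerve basement membranes, had 1.65, 28.1, 1.55 and 24.5 CPM, with ratios of 17.1 (12.1 to 24.7) and 15.8 (10.97 to 23.4). Lama4, a short chain of endothelial and mesenchymal basement membranes, had 3.67, 21.4, 3.55 and 26.1 CPM, with ratios of 5.83 (4.58 to 7.50) and 7.34 (5.73 to 9.53). Lama1, the alpha chain of the embryonic basement membrane, had 5.41, 15.3, 1.40 and 12.1 CPM, and its ratios were 2.83 (2.29 to 3.52) and 8.63 (5.84 to 13.2). The wider ratio of Lama1 at 7 days went with a lower level in the library labelled control at that time.

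Lama3, the alpha chain of the epithelial anchoring laminin, was the exception. It had 7.15, 5.03, 7.81 and 2.97 CPM, and no other member was lower under the label OGT-KO at either time. The ratio was 0.703 with no recovery (0.547 to 0.902), which missed the 2-fold limit, and 0.380 after 7 days (0.281 to 0.509), which passed it. With median-ratio scaling the log2 differences were -1.05 and -1.71, both past the limit. In the annotation 1.83% of the Lama3 exon length overlaps another gene.

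Each of the 3 beta chains and the gamma chains Lamc1 and Lamc3 were called higher at both times (28.0% of all genes). Lamb1, the most widely used beta chain, had 7.81, 60.1, 5.91 and 68.2 CPM, with ratios of 7.69 (6.55 to 9.09) and 11.6 (9.57 to 14.05). Lamb2, the beta chain of synaptic, glomerular and vascular basement membranes, had 8.42, 40.8, 5.86 and 54.1 CPM. Lamb3, the beta chain that pairs with Lama3 in the epithelial anchoring trimer, had 4.19, 11.7, 1.85 and 11.7 CPM and the smallest log2 difference of the 3 beta chains with no recovery, 1.29. Lamc1, the gamma chain of most laminins, had 19.1, 133, 16.3 and 122 CPM, with ratios of 6.92 (6.24 to 7.69) and 7.49 (6.67 to 8.43). Lamc3, a gamma chain of few tissues, had 2.78, 26.0, 5.31 and 28.8 CPM. In the annotation 6.27% of the Lamc3 exon length overlaps an antisense gene, and whether reads were counted by strand is not given in the sources used here.

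The make-up of the laminin chains, compared per length as CPM per kb of annotated exon, does not depend on how the libraries are scaled. Lama3 made up 30.7% and 39.8% of laminin alpha RNA per kb in the libraries labelled control with no recovery and after 7 days, and 3.25% and 1.88% in those labelled OGT-KO. Lama5 made up 24.9% and 31.0% in the former and 61.6% and 64.7% in the latter. As shares of reads, Lama3 took 29.7% (exact Clopper-Pearson interval 25.8 to 33.9) and 37.6% (32.9 to 42.4) against 2.94% (2.44 to 3.52) and 1.71% (1.32 to 2.16). Lama2 also took a larger share per kb in the libraries labelled OGT-KO (11.9% and 10.2% against 4.64% and 5.20%). Lama4 stayed between 12.3% and 16.1% in the 4 libraries. Among the beta chains Lamb2 held 46.1% to 52.4% per kb in every library, and Lamb1 held 28.1% and 32.4% in the libraries labelled control and 41.7% and 39.2% in those labelled OGT-KO.

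**Figure D2:**
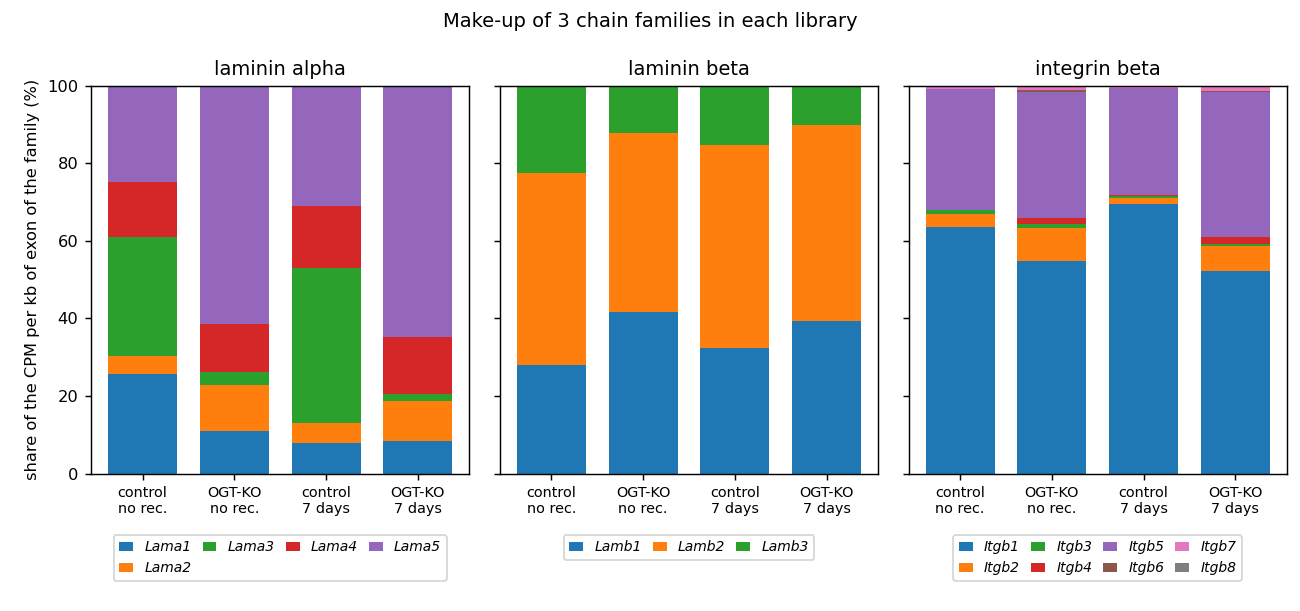
Share (%) of the summed CPM per kb of exon taken by each laminin alpha chain, laminin beta chain and integrin beta subunit, as stacked bars, 1 bar per library. The Lama3 share is 30.7% and 39.8% in the libraries labelled control and 3.25% and 1.88% in those labelled OGT-KO, and Lama5 takes 61.6% and 64.7% in the latter.

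Ratios of Lama5 to Lama3 within a library, a pair chosen after the values were seen, show the same. Per kb, Lama5 was 0.813 of Lama3 in the no-recovery library labelled control (0.639 to 1.03) and 19.0 of it in that labelled OGT-KO (15.7 to 23.1). After 7 days the ratio was 0.780 (0.613 to 0.992) in the library labelled control and 34.4 (27.0 to 44.6) in that labelled OGT-KO. The proportion of these 2 alpha chains was thus near 1 in the libraries labelled control and over 10 in those labelled OGT-KO.

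Integrins are described from the most shared subunit outward. Itgb1, the beta subunit that pairs with most alpha subunits, had the highest level per length of any member in all 4 libraries, 42.1, 95.2, 40.2 and 84.8 CPM per kb. Its level of 172, 388, 164 and 346 CPM gave ratios of 2.26 (2.17 to 2.35) and 2.11 (2.02 to 2.20), just past the limit at the deposited scaling and short of it with median-ratio scaling. Itgb5, a beta subunit of the vitronectin receptor with alpha v, came next per length at 20.5, 56.7, 15.9 and 60.7 CPM per kb. It had 73.0, 202, 56.5 and 216 CPM, with ratios of 2.76 (2.61 to 2.93) and 3.82 (3.58 to 4.08). Per kb, Itgb5 was 0.488 and 0.395 of Itgb1 in the libraries labelled control and 0.596 and 0.716 of it in those labelled OGT-KO.

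The other partners of alpha v were also higher at both times, so that 4 of 4 were called (28.0% of all genes). Itgb8, which with alpha v activates latent TGF-beta, had 0.612, 4.07, 0.401 and 4.92 CPM. Itgb6, an epithelial subunit with the same activity, had 3 reads in each library labelled control, and 0.141, 3.72, 0.150 and 5.10 CPM. Its ratios, 26.3 (8.71 to 130) and 33.9 (11.3 to 167), are therefore imprecise. Itgb3, the subunit also found on platelets and osteoclasts, had 3.58, 10.9, 1.65 and 5.58 CPM, and the 7-day library labelled OGT-KO lay less than 2-fold above the no-recovery library labelled control. Beside it the platelet marker Pf4 had 0.235, 4.20, 0.250 and 3.19 CPM, and the platelet markers Ppbp, Gp9, Gp1bb and Gp5 were not listed. Itga2b, the platelet fibrinogen receptor subunit, had 3.25, 6.69, 3.71 and 5.23 CPM and was called at neither time. The part of platelets in the result was not tested.

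Alpha subunits that bind the RGD tripeptide of fibronectin, vitronectin and related ligands were called higher in 3 of 3 at both times (28.0% of all genes). Itgav had 21.7, 68.2, 22.03 and 92.4 CPM, with ratios of 3.14 (2.83 to 3.49) and 4.20 (3.78 to 4.66). Itga5, the fibronectin receptor subunit, had 30.4, 74.8, 28.4 and 97.1 CPM. Itga8, a nephronectin receptor subunit of mesenchymal cells that stellate cells express, had 5.17, 26.7, 3.10 and 64.0 CPM, and its ratios were 5.16 (4.20 to 6.37) and 20.6 (16.0 to 27.0). Itga8 was the member whose label difference widened most on the log2 scale, from 2.16 to 3.99. Of the subunits alpha4 and alpha9, which bind VCAM1, fibronectin or tenascin, Itga4 had 4.42, 11.4, 4.16 and 12.0 CPM. Itga9 had 18.5, 73.4, 10.7 and 73.6 CPM, and both subunits were called higher at both times (28.0% of all genes).

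Of the 4 collagen-binding alpha subunits, 3 were called higher with no recovery and 4 after 7 days (33.5% and 32.7% of all genes). Itga1, which prefers the collagen IV of basement membranes, had 26.4, 62.1, 24.4 and 62.4 CPM, with little change between the times. Itga2, the collagen I receptor subunit of epithelia and platelets, had 0.188, 6.82, 0.300 and 10.99 CPM, and its ratios of 36.3 (13.9 to 135) and 36.6 (16.6 to 101) rest on few reads in the libraries labelled control. Itga11, a fibroblast collagen receptor subunit, had 0.423, 2.67, 0.200 and 1.95 CPM. Itga10, the subunit best known from cartilage, had 3.53, 7.74, 1.45 and 5.36 CPM, and its log2 difference of 0.95 with no recovery missed the limit although its ratio of CPM was 2.19. In the annotation 33.5% of the Itga10 exon length overlaps another gene, so its reads are uncertain.

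Laminin-binding subunits other than Itga7 were higher at both times. Itga3, which binds the laminins that hold Lama3 or Lama5, had 9.55, 74.6, 9.51 and 77.9 CPM, with ratios of 7.81 (6.75 to 9.08) and 8.19 (7.05 to 9.56). Itgb4, the long-tailed beta subunit of hemidesmosomes, had 0.753, 18.9, 1.20 and 19.5 CPM, with ratios of 25.2 (15.3 to 44.4) and 16.3 (10.8 to 25.7). Itga6, its alpha partner, had 2.02, 15.0, 1.15 and 32.0 CPM, with ratios of 7.42 (5.39 to 10.4) and 27.8 (18.4 to 44.1). For each of these 3 genes both libraries labelled OGT-KO were above both labelled control, as for 73.7% of all genes. Itga7, the laminin receptor subunit of muscle, had 27.2, 31.9, 18.3 and 20.6 CPM, with ratios of 1.17 (1.05 to 1.31) and 1.13 (0.981 to 1.30). Its values differed more between the times than between the labels, and its small log2 differences of 0.22 and 0.16 became -0.47 and -0.49 with median-ratio scaling and were below 0 with upper-quartile scaling too. Per kb, Itga7 made up 15.7% and 13.7% of integrin alpha RNA in the libraries labelled control and 5.37% and 2.99% in those labelled OGT-KO, whereas Itga3 made up 7.81% and 10.1% against 17.8% and 16.0%.

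Leukocyte integrins were called higher in 5 of 6 at no recovery and 6 of 6 after 7 days (33.5% and 32.7% of all genes). Itgb2, the beta subunit shared by leukocyte integrins, had 6.59, 45.3, 2.80 and 31.8 CPM, with ratios of 6.88 (5.76 to 8.27) and 11.3 (8.63 to 15.2). Itgax, the CD11c subunit of dendritic cells and some macrophages, had 1.03, 25.9, 0.701 and 23.8 CPM, with ratios of 25.1 (16.4 to 40.3) and 33.9 (20.1 to 62.5). Itgal, the alpha subunit of LFA-1, had 12.7, 41.7, 4.41 and 37.0 CPM. For all 6 leukocyte integrins both libraries labelled OGT-KO were above both labelled control, as for 73.7% of all genes. Itgam, the CD11b subunit of myeloid cells, had 0.376, 4.50, 0.200 and 3.50 CPM, but 68.7% of its annotated exon length overlaps another gene. Itgb7, a subunit of gut-homing lymphocytes, had 1.60, 5.07, 0.851 and 4.79 CPM. Itgae, which pairs with Itgb7, had 0.565, 1.18, 0.150 and 2.53 CPM, and its difference passed the limit only after 7 days, when 3 reads lay in the library labelled control.

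Beside the leukocyte integrins, the 10 macrophage markers summed to 233, 1024, 87.5 and 824 CPM. Of these, 9 were called higher at each time (33.5% and 32.7% of all genes). Lyz2 was the highest by its mean over the 4 libraries. The 5 neutrophil markers listed summed to 5.50, 29.8, 2.30 and 45.6 CPM, with Ly6g and Retnlg not listed and Mmp8 at 0 in the no-recovery library labelled control. T and NK cell markers were low, at 3.76, 10.5, 3.35 and 6.03 CPM for the 6 of 10 listed, and Cd8a was at 0 in the library labelled control after 7 days. B cell markers summed to 2.49, 8.27, 1.10 and 5.58 CPM and dendritic markers to 9.41, 20.1, 8.06 and 17.5 CPM. The part of these cells in the result was not tested.

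**Figure D3:**
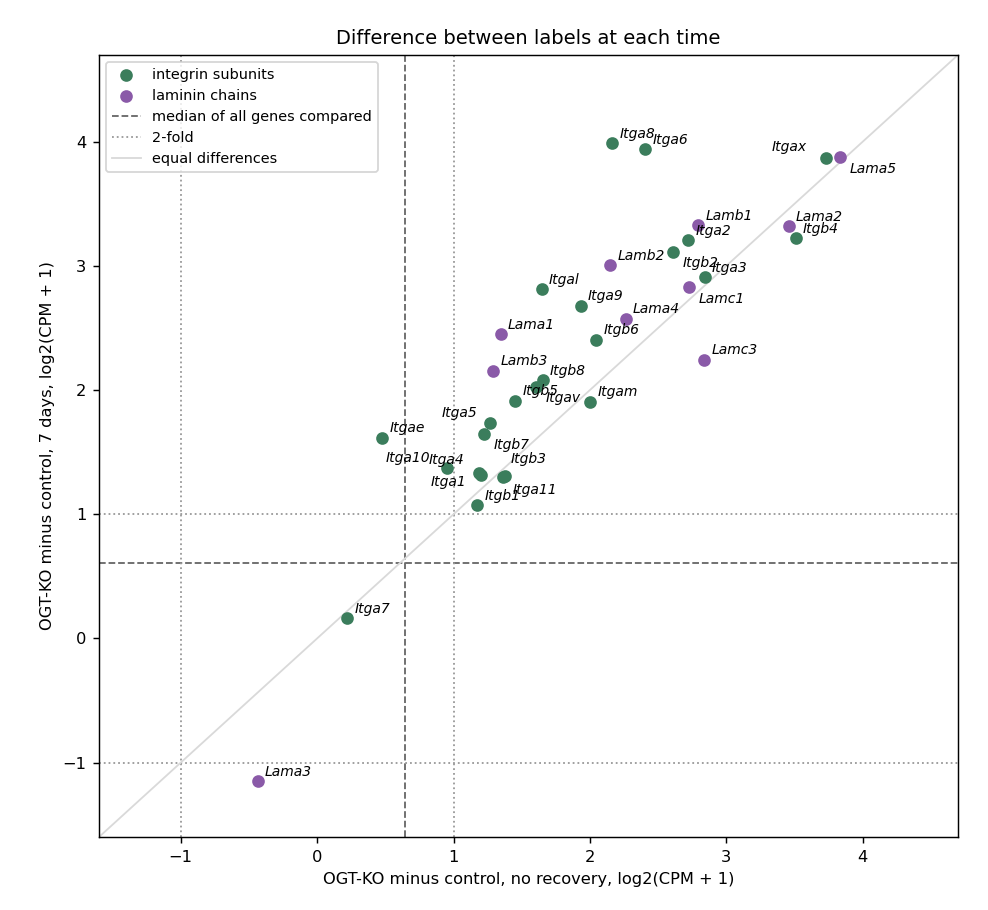
Difference between the labels, OGT-KO minus control on the log2(CPM + 1) scale, with no recovery (x axis) and after 7 days (y axis) for 34 members, 1 point per gene. Dashed lines are the medians of all genes compared, 0.64 and 0.61, and 32 of the members shown lie above 2-fold on the y axis, with Itga7 near the origin and Lama3 at -0.43 and -1.15.

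Label differences at the 2 times were set side by side, each from its own pair of libraries. The difference after 7 days minus that with no recovery was above 0 for 26 members and below 0 for 9, with a median of 0.36 against 0.05 for all genes compared. Counting error alone left few members undecided. With no recovery the interval of the ratio was above 1 in 34 members and below 1 in Lama3. After 7 days it was above 1 in 33, below 1 in Lama3 and included 1 in Itga7. Most genes also differed beyond counting error at this depth. By an exact binomial test on recovered reads (Benjamini-Hochberg adjusted at 0.05), 11450 genes did with no recovery and 11276 after 7 days, at any fold. Against the median of all genes, 32 of 35 members were above it with no recovery and 33 of 35 after 7 days.

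Recovery was compared within each label. In the libraries labelled control, 0 members were called higher after 7 days (0.239% of all genes) and 2 were called lower (1.02%). These were Lama1, which fell from 5.41 to 1.40 CPM, a ratio of 0.259 (0.165 to 0.394), and Itgal, which fell from 12.7 to 4.41 CPM, a ratio of 0.348 (0.271 to 0.445). Itgb2, at 6.59 and 2.80 CPM, stayed just short of the limit on the log2(CPM + 1) scale. The median of the members was -0.22 against -0.05 for all genes, and 25 of 35 members lay below the median of all genes. Macrophage markers moved alongside, with 8 of 10 called lower (1.02% of all genes) and a sum of 233 CPM before and 87.5 CPM after. Their part in the leukocyte integrin values was not tested.

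In the libraries labelled OGT-KO, 2 members were called higher after 7 days (1.31% of all genes) and 0 were called lower (0.708%). They were Itga8, which rose from 26.7 to 64.0 CPM, a ratio of 2.40 (2.18 to 2.64), and Itga6, which rose from 15.0 to 32.0 CPM, a ratio of 2.13 (1.87 to 2.43). The interval of Itga6 reaches below 2-fold and that of Itga8 does not. Within this label the median of the members was 0.04 against -0.02 for all genes, and 14 of 35 lay below the median of all genes. Itga6 was 0.422 of Itga7 per kb with no recovery (0.370 to 0.480) and 1.39 of it after 7 days (1.23 to 1.56), whereas it was 0.0667 and 0.0563 of it in the libraries labelled control. In this label the recovery difference of Lama3 was -0.60 and that of Itgb3 was -0.85, both short of the limit.

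**Figure D4:**
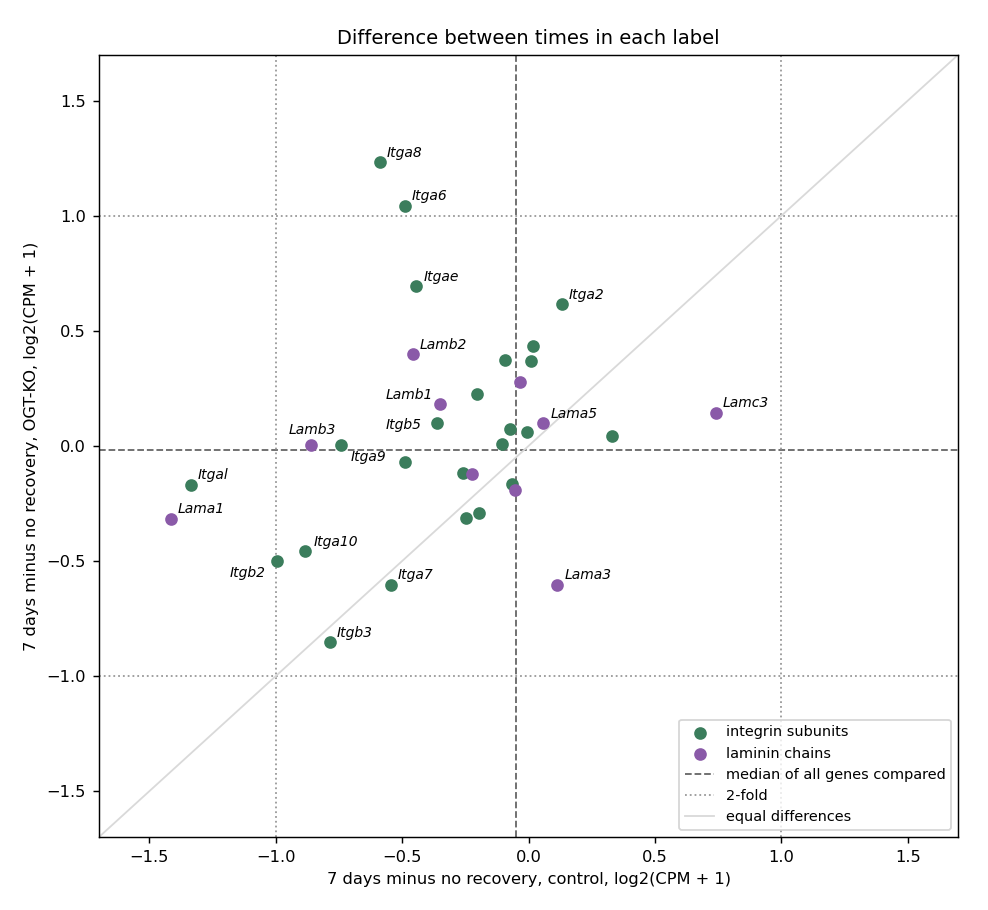
Difference between the times, 7 days minus no recovery on the log2(CPM + 1) scale, in the libraries labelled control (x axis) and OGT-KO (y axis) for 34 members, 1 point per gene. Itga6 and Itga8 lie above the upper 2-fold line at 1.04 and 1.23 on the y axis, Itgal and Lama1 left of the lower one at -1.34 and -1.42 on the x axis, and the other members shown lie inside both limits.

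Other genes of the pathway were taken from 4 lists. Of 26 integrin ligands compared, 23 were called higher at each time (33.5% and 32.7% of all genes). With medians of 2.15 and 2.32, 0 were called lower (4.60% and 3.50%). Fbn1, the microfibril protein fibrillin-1, had 2.73, 94.2, 2.45 and 110 CPM, and Spp1, the RGD ligand osteopontin, had 41.0, 977, 52.1 and 1245 CPM. Tnc, the alpha9 ligand tenascin-C, had 1.93, 84.4, 1.20 and 36.6 CPM. These 3 genes were named for the size of their label differences. By the mean over the 4 libraries, Vtn (vitronectin) and Fn1 (fibronectin) were the highest of the list, and neither was called. Vtn had 2851, 2134, 2969 and 1916 CPM and Fn1 had 1742, 2096, 2069 and 2177 CPM. With median-ratio scaling Vtn was past 2-fold lower at both times (-1.14 and -1.32).

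Of 19 basement membrane partners compared, 16 were called higher with no recovery and 17 after 7 days (33.5% and 32.7% of all genes). With medians of 2.19 and 2.67, 0 were called lower at the deposited scaling (4.60% and 3.50%). Col18a1, the highest of the list by its mean over the 4 libraries, went the other way, with 1364, 949, 1392 and 977 CPM. Its log2 differences were -0.52 and -0.51, and -1.24 and -1.19, past the limit, with median-ratio scaling. Nid1, the nidogen that links laminin to collagen IV, had 16.4, 383, 12.8 and 313 CPM, more than any laminin chain moved on the log2 scale at either time (4.46 and 4.51). Col4a5, a collagen IV chain, had 1.18, 35.2, 1.15 and 48.0 CPM, and Sparc, a collagen-binding matricellular protein, had 57.8, 602, 35.8 and 799 CPM. Among the 9 other laminin receptors 5 were higher at each time (33.5% and 32.7% of all genes), with medians of 1.12 and 1.48, and the first of these was 0.40 with median-ratio scaling. In this list 1 gene was lower after 7 days (3.50% of all genes), the syndecan Sdc4, with 483, 283, 481 and 204 CPM. Bcam, a receptor of laminins with Lama5, had 5.83, 46.6, 4.96 and 57.2 CPM. The syndecans Sdc3 and Sdc1 had differences of 1.55 and 1.12 with no recovery and of 2.36 and 1.48 after 7 days.

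Of 37 intracellular adaptors of integrins compared, 19 were called higher with no recovery and 21 after 7 days (33.5% and 32.7% of all genes). At the deposited scaling 0 were called lower (4.60% and 3.50%), and the median was 1.10 with no recovery. Src, a kinase recruited to adhesions, had 3.58, 41.9, 2.90 and 47.9 CPM. Flna, the actin crosslinker filamin A that binds beta subunits, had 31.9, 272, 20.1 and 272 CPM, and Nedd9, a docking protein, had 6.26, 45.7, 5.51 and 44.8 CPM. With median-ratio scaling the median of the adaptors was 0.39 with no recovery. Under that scaling Lims2 was past 2-fold lower at both times (-1.34 and -1.42) and Parva with no recovery (-1.36).

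**Figure D5:**
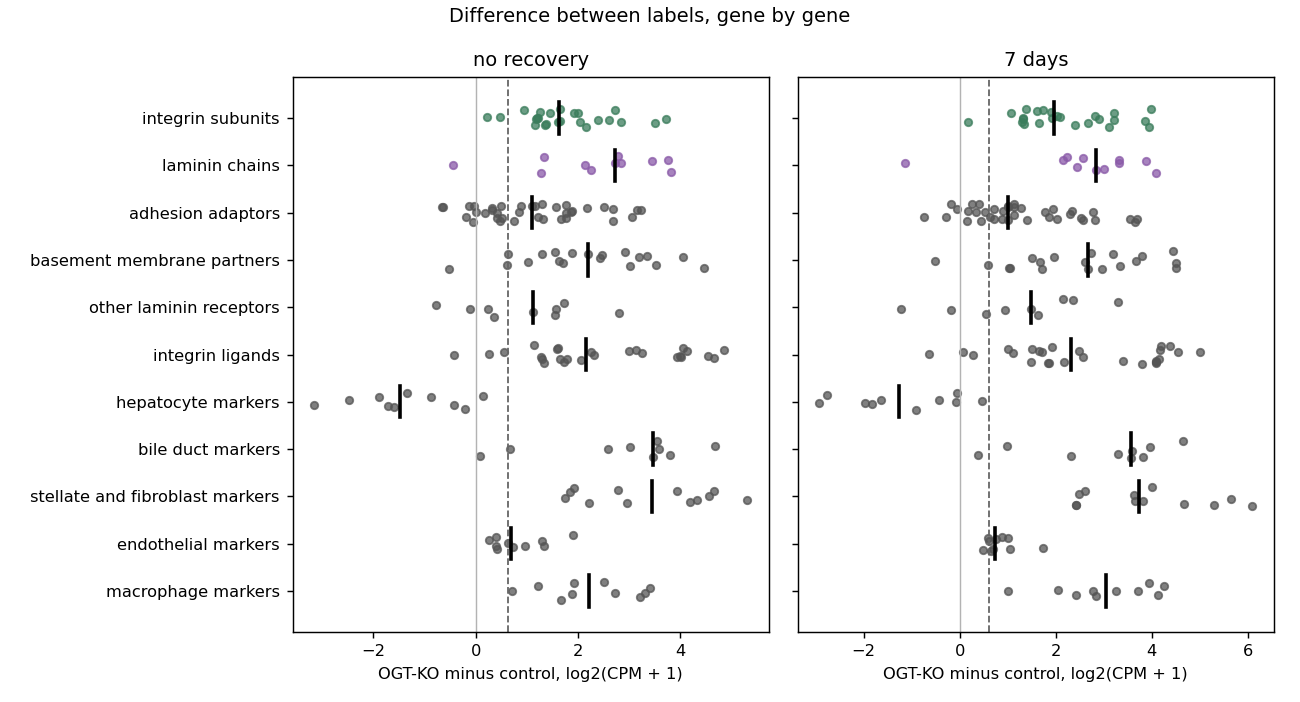
Difference between the labels, OGT-KO minus control on the log2(CPM + 1) scale, for each gene (points) of the integrins, laminins, pathway lists and main cell marker lists, with the median of each list as a black bar and the median of all genes compared as a dashed line. Laminin chains have medians of 2.73 and 2.83, stellate and fibroblast markers 3.45 and 3.74, and endothelial markers, at 0.68 and 0.73, lie close to the dashed line.

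Marker lists of other liver cell types were set beside these values. Stellate and fibroblast markers summed to 250, 3587, 180 and 4420 CPM, with 12 of 12 called higher at both times (28.0% of all genes). Col3a1 was the highest of them by its mean over the 4 libraries. Bile duct markers summed to 84.2, 315, 86.5 and 388 CPM, with 7 of 9 compared called higher at both times (28.0% of all genes). Krt19 had 1.69, 28.8, 1.15 and 32.6 CPM and Epcam 1.55, 64.2, 2.35 and 82.6 CPM, while Slc4a2, the highest of the list by its mean over the 4 libraries, was not called. Endothelial markers summed to 263, 444, 185 and 329 CPM, with 3 of 10 called higher with no recovery and 2 after 7 days, where 33.5% and 32.7% of all genes were. Mesothelial markers were low, at 5.03, 9.58, 4.56 and 18.9 CPM. Hepatocyte markers summed to 86171, 55880, 94611 and 67122 CPM, with 6 of 10 called lower with no recovery and 5 after 7 days (4.60% and 3.50% of all genes). The part of cell composition in the integrin and laminin differences was not tested.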

How the data were processed

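Bulk mRNA-seq of liver was analysed in 4 libraries, 1 per condition, each of 3 pooled mice. The authors deposited CPM for 13903 genes, and each library sums to 1e+06. Per the submitters' processing notes, STAR, DESeq2 and GRCm39 were used. Versions, the counter, annotation, strand setting and filter are not given in the sources used here. In every library 100% of values were whole multiples of 1 read (tolerance 0.01), worth 0.0437 to 0.0501 CPM, so whole reads were recovered. All columns were used. The article given with the series describes no CDE experiment, and no method was taken from it.

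Differences of log2(CPM + 1) were computed for genes whose mean reached 1 CPM, because integrin and laminin RNA is low in liver, and called at 2-fold. With 1 library per condition there is no test and no p-value. Intervals are 95% exact (Clopper-Pearson on reads, conditional for ratios) and, as the floor of 3 reads, cover counting error only. Levels per length used exon lengths of GENCODE M21 (GRCm38, 35 of 35 members matched). Promoters came from the RefSeq table of GRCm38.p6 (22 of 35 members matched). Scripts were tested on simulated data. Members, gene lists and alternatives were chosen with earlier results of these data known.

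Members are named with their values, other than 1 that, with 1 marker gene, is not reported here. In each pathway list the 3 genes with the largest mean label difference and a mean of at least 10 CPM were named, in each marker list the highest gene and those at or near 0. Krt19, Epcam, Sdc4, Vtn, Fn1, Col18a1, Lims2, Parva and the pair ratios were chosen after their values were seen. For likeness, the 3 genes of at least 10 CPM on average nearest in Euclidean distance over the 4 centred log2 values were taken. Alternatives tried were other pseudocounts (0.1, 10), leaving out the filter, a filter at 10 CPM, median-ratio or upper-quartile scaling, a 4-fold limit, Itga2b and Itgb2l counted as members, and, beside the 2-fold limit, an exact binomial test on recovered reads (Benjamini-Hochberg adjusted at 0.05) that compares libraries and not conditions. Python 3.11, numpy 2.4.6, pandas 2.3.3, scipy 1.17.1 and matplotlib 3.10.9 were used.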

Additional observations from a re-analysis of the deposited data

Results flagged for a closer look

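In 6 members the difference between 7 days and no recovery had opposite signs in the libraries labelled control and OGT-KO, with a counting interval of the ratio off 1 in each. The share of all genes with this pattern is not given here, so the count cannot be called unusual. Between the times, 4116 genes under the label control and 6365 under the label OGT-KO passed the exact binomial test of recovered reads at any fold. The difference between the labels was not tested, since each condition has 1 library. Given as control and then OGT-KO on the log2(CPM + 1) scale, the recovery differences were -0.49 and 1.04 for Itga6, -0.59 and 1.23 for Itga8, and -0.44 and 0.69 for Itgae. They were -0.36 and 0.10 for Itgb5, -0.35 and 0.18 for Lamb1, and -0.46 and 0.40 for Lamb2. OGT-KO minus control, these came to 1.53 for Itga6, 1.82 for Itga8, 1.14 for Itgae, 0.46 for Itgb5, 0.53 for Lamb1 and 0.86 for Lamb2. On that scale only the values of Itga6 and Itga8 in the libraries labelled OGT-KO passed 2-fold. In CPM the ratios of Itgae passed it too, at 0.266 in the libraries labelled control and 2.14 in those labelled OGT-KO. The signs were the same with median-ratio scaling for these 6 members. Itgae rests on 3 reads in the library labelled control after 7 days, and 5.05% of the Itga8 exon length overlaps an antisense gene.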

How the results depend on the processing

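No called member changed sign under any pseudocount or scaling tried, but these settings could not have shown otherwise. A pseudocount cannot change the sign of a difference. The scalings moved differences by less than the 2-fold limit, as for Itgb1 with no recovery, from 1.17 to 0.45 with median-ratio scaling. With no recovery, 20 members were called higher with a pseudocount of 10, 19 with median-ratio scaling, 22 with upper-quartile scaling and 16 at 4-fold. Lama3 alone, 1 member, was called lower with median-ratio scaling. After 7 days, 22 were called higher with a pseudocount of 10, 27 with median-ratio scaling, 28 with upper-quartile scaling and 22 at 4-fold. At a mean of at least 10 CPM, which leaves 22 members, 21 were called higher. At that time 0 were called lower with a pseudocount of 10, at a mean of at least 10 CPM or at 4-fold. In the libraries labelled control, 7 members were called lower after recovery with a pseudocount of 0.1, 1 at a mean of at least 10 CPM, and 0 with a pseudocount of 10 or at 4-fold. In those labelled OGT-KO, 1 was called higher with a pseudocount of 10 and 0 at 4-fold. The median label difference with no recovery was 2.34 and 1.13 with pseudocounts of 0.1 and 10, 2.33 at a mean of at least 10 CPM and 1.35 with median-ratio scaling. After 7 days it was 3.02, 1.40, 2.87 and 1.95 in that order. With median-ratio scaling, 47 recomputed member differences moved by more than counting error allows and 93 did not. These numbers were 41 and 99 with upper-quartile scaling, 15 and 125 with a pseudocount of 0.1, and 68 and 72 with a pseudocount of 10. The 560 recomputed differences are those of all these settings together. Itga7 in the label comparisons, and Itga3 (with upper-quartile scaling Lama4 too) in the recovery of the libraries labelled control, changed sign without being called. Every 2-fold call also passed the exact binomial test of recovered reads, but so did every such call over all genes. Of the genes called higher under the label OGT-KO, 4352 of 4352 passed with no recovery and 4241 of 4241 after 7 days. Passing this test therefore does not set the members apart. No paired analysis was possible because each condition has 1 library and the labels give no replicate numbers. With 1 library per condition, depth limits counting error only, and the spread between mice is unknown.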

Other observations

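Genes whose pattern over the 4 libraries was most like that of a member were found by distance on centred log2(CPM + 1), a description over 4 points. Nearest to Lama3 were Cela1 (0.0567), Ftcd (0.125), an enzyme of histidine breakdown in hepatocytes, and Il6ra (0.223). Ftcd had 483, 335, 491 and 244 CPM in the libraries labelled control and OGT-KO with no recovery and control and OGT-KO after 7 days. Cela1 had 20.4, 14.6, 20.9 and 9.08 CPM, and both genes had the same order of levels as Lama3. Nearest to Itga8 were Itga6 (0.179), Knstrn (0.368) and Tcf21 (0.373). Knstrn had 1.74, 16.1, 1.30 and 30.6 CPM, and Tcf21, a transcription factor of stellate cells, had 2.78, 16.4, 1.75 and 30.0 CPM.

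The genes Itga2b and Itgb2l, whose symbols carry a letter after the number, were kept out of the members. Itga2b, the platelet fibrinogen receptor subunit, had 3.25, 6.69, 3.71 and 5.23 CPM, and Itgb2l had 2.87, 2.58, 2.50 and 3.28 CPM in the same order of libraries, and neither passed 2-fold between the labels on the log2(CPM + 1) scale. In the GRCm38 annotation several members are neighbours, with a gap of 11.1 kb between Itgam and Itgax and of 20.996 kb between Itga2 and Itga1.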
